A study of Homo sapiens with 9 samples.

Results

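Gene deserts are long stretches of a chromosome in which no protein is encoded. Here they were defined without any use of the γH2AX data, as 1 Mb bins of the autosomes, laid from base 1 of each chromosome of GRCh38, with at least 900 kb assembled. A bin counted as a desert if no GENCODE protein-coding gene started in it and if protein-coding gene bodies covered at most 10% of it. Of the 2723 bins with enough assembled sequence, 297 were deserts. They held 295.5 Mb, or 10.7% of the assembled autosomal bases.

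γH2AX is histone H2AX phosphorylated at its tail by the checkpoint kinases ATM, ATR and DNA-PK around broken DNA and stalled replication forks, and it spreads from the lesion into the flanking chromatin. Gene deserts have few transcripts and, in most cell types, few early replication origins. Many of them replicate late in S phase, lie at the nuclear lamina and are rich in A and T.

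The series mapped γH2AX binding by ChIP-seq in cells of the human B lymphoblastoid line GM09027A, as the labels name it (the study's methods give GM07027), and asked where it lies after different kinds of replication stress. Cells were left untreated, or were exposed for 24 h to APH (aphidicolin, an inhibitor of the replicative DNA polymerases, 0.1 µg/mL), HU (hydroxyurea, which depletes the nucleotide pool, 2 mM) or MMS (methyl methanesulfonate, which alkylates DNA bases, 200 µM). Each condition had 2 replicates, for which the study made a separate list of broad peaks over an input library. All conditions shared this 1 cell line, so the spread between lists did not cover differences between people. The lists held between 4327 and 79891 autosomal peaks, and no read depth came with them. A peak was placed by its midpoint.

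As a group the deserts differed from the other bins in base composition before any peak was counted. Their median GC content was 36.1%, against 40.7% in the 2426 other bins and 45.3% in the 635 bins with 10 or more protein-coding starts. They formed 190 runs of adjoining bins, of which 123 were a single bin and 30 were 3 or more bins long. Chromosome 4 held the most, with 33, and the lowest number on any chromosome was 3. Deserts were not free of transcription units, since 868 long noncoding RNA (lncRNA) genes started in them and 232 of the 297 bins held at least 1 such start.

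A part of the deserts was centromeric repeat. In 56 desert bins, and in 4 of the other bins, at least 10% of 300-base windows held, on either strand, the core motif of the CENP-B box found in alpha satellite DNA (TTCG, any 4 bases, A, any 2 bases, CGGG). Over all deserts the motif was in 11.0% of windows, against 0.0660% of windows in the other bins. Reads from such repeats are hard to place. For this reason every 1000th position was checked for whether its 100-base word occurred once in the genome, and 59 desert bins had fewer than 80% unique words, against 63 of the other bins.

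Sequence around the sites that recurred in both replicates of a condition shows both kinds of desert. The first pair of sequences came from deserts in the centromeric repeat of chromosome 17, which carried the recurrent desert sites of untreated cells. Their bins had 10.7% and 40% unique words, so reads there are hard to place. The second pair came from the strongest recurrent site outside that repeat after APH and from the strongest after HU. Letters are the GRCh38 plus strand, and capitals mark CG dinucleotides.
Chromosome 17 site A, chr17:25920060-25920359: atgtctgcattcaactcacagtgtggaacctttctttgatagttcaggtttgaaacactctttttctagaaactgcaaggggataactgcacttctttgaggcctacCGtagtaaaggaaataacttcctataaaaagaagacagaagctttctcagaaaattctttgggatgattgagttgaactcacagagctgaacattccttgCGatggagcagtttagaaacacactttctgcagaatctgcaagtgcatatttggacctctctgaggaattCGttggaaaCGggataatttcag
Chromosome 17 site B, chr17:26885271-26885570: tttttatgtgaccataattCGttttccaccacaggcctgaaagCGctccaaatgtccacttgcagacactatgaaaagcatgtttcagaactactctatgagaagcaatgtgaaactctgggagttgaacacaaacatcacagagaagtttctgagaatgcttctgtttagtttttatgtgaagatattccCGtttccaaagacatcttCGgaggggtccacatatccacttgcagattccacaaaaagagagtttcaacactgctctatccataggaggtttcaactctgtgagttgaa
APH site on chromosome 20, chr20:39118985-39119284: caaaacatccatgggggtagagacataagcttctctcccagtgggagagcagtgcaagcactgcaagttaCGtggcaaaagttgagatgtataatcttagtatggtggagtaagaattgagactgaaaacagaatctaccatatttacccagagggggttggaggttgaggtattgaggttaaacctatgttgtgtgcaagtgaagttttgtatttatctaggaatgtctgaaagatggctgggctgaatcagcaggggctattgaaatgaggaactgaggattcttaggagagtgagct
HU site on chromosome 2, chr2:41949443-41949698: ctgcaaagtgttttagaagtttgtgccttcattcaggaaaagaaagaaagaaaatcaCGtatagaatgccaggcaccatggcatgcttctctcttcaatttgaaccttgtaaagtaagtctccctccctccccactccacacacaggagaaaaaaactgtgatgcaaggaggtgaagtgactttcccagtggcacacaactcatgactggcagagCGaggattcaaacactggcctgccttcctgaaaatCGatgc
Site A held 1 match to the CENP-B motif, and the other 3 sequences held none. The letters in a 5000-base window around sites A and B matched those 171 bases further on at 47.6% and 57.7% of positions, where the median over shifts of 100 to 1000 bases was 25.4% and 25.7%. That spacing is the length of an alpha satellite monomer. No such spacing stood out around the APH and HU sites, whose best matches among shifts of 100 to 300 bases were 27.7% and 26.8%.

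γH2AX peaks were scarce in deserts in every list. Of the autosomal peaks, 17 of 4779 and 31 of 4327 lay in deserts in untreated cells, which was 0.356% (95% Wilson interval 0.222 to 0.569) and 0.716% (0.505 to 1.02). APH gave 115 of 17658 (0.651%) and 99 of 14009 (0.707%). HU gave 113 of 79891 (0.141%, 0.118 to 0.170) and 91 of 69922 (0.130%, 0.106 to 0.160), and MMS gave 137 of 12202 (1.12%) and 134 of 10465 (1.28%). Each of these shares lay far under the 10.7% of bases that deserts hold, with MMS nearest to it and HU farthest from it. The intervals cover counting error only. The lists also differed in the strength of their peaks. A q-value of at most 0.05 was reached by 76 of 113 and 42 of 91 HU desert peaks, but by only 4 in each untreated, APH and MMS list. Outside deserts, 78.4% and 60.3% of HU peaks reached it, against at most 1.08% in any other list. The order of conditions thus compares lists of unlike stringency.

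Set against the share of bases, desert peaks reached 0.05001 ± 0.0238 (SD, n = 2) of the proportional number in untreated cells, 0.0633 ± 0.00366 with APH, 0.0127 ± 0.000745 with HU and 0.112 ± 0.0104 with MMS. In peaks per Mb, the other bins exceeded deserts 31.1-fold and 15.4-fold in the untreated lists, 17.9-fold and 16.5-fold with APH, 85.6-fold and 92.9-fold with HU, and 10.5-fold and 9.20-fold with MMS. The mean log2 ratio of desert to other density was −4.58 ± 1.28 (SD, n = 8 lists), and it was negative in 8 of 8 lists (exact two-sided sign-flip permutation test, p = 0.00781, the smallest that 8 lists allow). The 8 lists shared the same bins and cell line, so this test covers the spread between lists only. The deficit was seen along the genome, since deserts fell under their share of bases on 22 of 22 autosomes in each list. The highest ratio on any chromosome was 0.372, on chromosome 8 in the second untreated list.

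**Figure D1:**
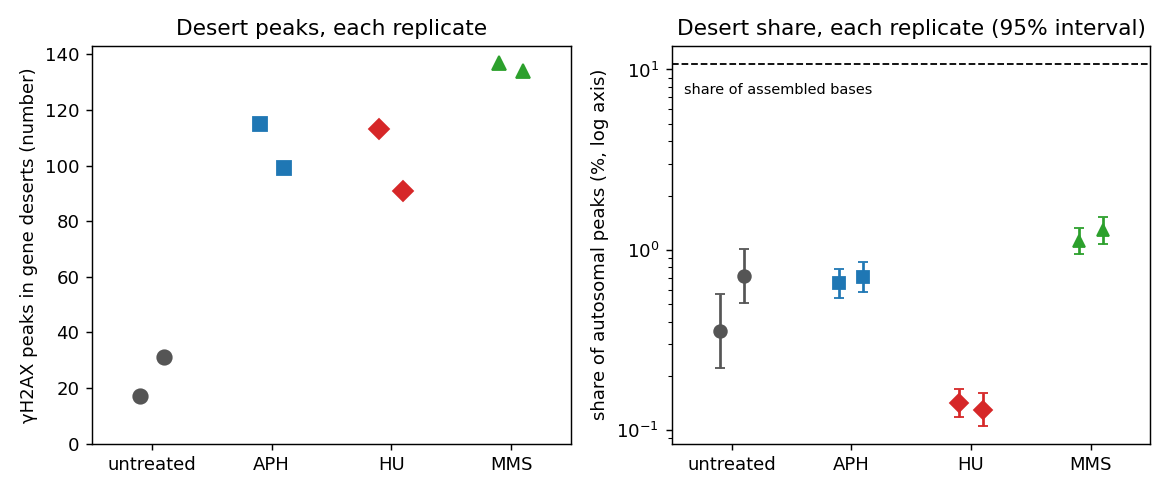
Number of γH2AX peaks in the 297 gene deserts (left, y axis) and their share of each list's autosomal peaks in percent on a log axis (right, with 95% Wilson intervals), by condition (x axis), with 1 point for each replicate. The dashed line is the 10.7% of bases that deserts hold. The 8 lists lie between 0.130% and 1.28%, with HU lowest and MMS highest.

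The HU lists had about as many desert peaks as the APH lists, in much longer lists. The mean number of desert peaks was 24 in untreated cells, 107 with APH, 102 with HU and 135.5 with MMS, which was 4.46, 4.25 and 5.65 times the untreated number. Over all autosomal peaks the same multiples were 3.48, 16.5 and 2.49. The desert share was thus 0.253 times that of untreated cells with HU, 2.24 times with MMS and 1.27 times with APH. Leaving out the second or the first untreated list put HU at 0.382 or 0.190 times, MMS at 3.38 or 1.68 times and APH at 1.91 or 0.948 times. Among peaks found in the other replicate MMS was at 0.823 times and APH at 0.540 times the untreated share, so that their direction reversed. These shares rest on 4 and 4 desert peaks in untreated cells, 5 and 5 with APH and 3 and 3 with MMS. All but 1 in each APH list, and all in the other lists named, lay in the centromeric repeat of chromosome 17, at positions that these conditions shared.

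HU was lowest and MMS highest at equal list length too. Among the 4327 peaks of lowest p in each list, which is the size of the shortest list, 40 and 47 MMS peaks lay in deserts, as did 20 and 25 APH peaks and 15 and 31 untreated peaks. Only 4 peaks of the first HU list and 0 of the second did so, and a count of 0 there allows a share of up to 0.0693%. In APH and MMS as well, the desert share of these peaks was under that of the full lists, at 0.462% and 0.578% with APH and 0.924% and 1.09% with MMS.

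The replicates of different conditions did not overlap in desert share, apart from APH and untreated cells. Neither HU list overlapped the range of the 6 other lists (mean 0.136% against 0.806%, exact two-sided permutation test, p = 0.0714, adjusted p = 0.444). With 2 lists against 2, each of the other pairwise differences that did not overlap gave p = 0.333, the smallest that such an exact permutation test allows. APH against untreated gave p = 1, and all treated lists against untreated gave p = 0.857 (exact permutation tests). None of the 8 comparisons passed at an adjusted p of 0.05, and none could have. The smallest p that these exact permutation tests allow is 0.333 for 2 lists against 2 and 0.0714 for 2 against 6. These comparisons share their untreated lists. The difference of APH from untreated cells, 0.143 percentage points, became −0.0375 without the first untreated list, so its direction rests on that list.

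Base composition moved with this scarcity. From deserts under 35% GC to deserts over 40% GC, all with at least 80% unique words, the mean density rose from 0.0298 to 2.08 with APH and from 0.140 to 1.98 with MMS, in peaks per Mb for each 10000 peaks in the list. It went from 0.0625 to 1.18 in untreated cells, and from 0.00278 to 0.0894 with HU, where deserts of 38 to 40% GC were highest at 0.412. That HU class held 75 and 61 peaks in 22 deserts. Of these peaks, 40 and 39 lay in chr8:128000001-129000000 and 31 and 17 in chr2:41000001-42000000, so its value is that of 2 bins more than of the class. The other bins rose with GC as well. Among bins with at least 80% unique words, the deserts of 35 to 36% GC held on average 0.0239 HU peaks per Mb for each 10000, against 0.0243 in the other bins of that GC. In the class of 40 to 41% GC the HU values were 0.0648 and 3.31. For MMS they were 0.204 and 0.161 in the lower class, and 1.54 and 3.46 in the upper class. In untreated cells, with few peaks, deserts of 35 to 36% GC had 0.0158 and the other bins 0.132, and at 34 to 35% GC deserts had 0.0661 and the other bins 0. At 34 to 35% GC the MMS values were 0.142 and 0.0569. The HU values of deserts and other bins were thus close at 35 to 36% GC and far apart at 40 to 41% GC. In the lower class, chr5:89000001-90000000 alone held 9 of the 13 HU desert peaks of each list, so the closeness rests largely on 1 bin. The upper class had only 4 deserts. In the other conditions the 2 kinds of bin differed in either direction at low GC.

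When the expected number was taken from the other bins of the same GC, 1 percentage point wide, desert peaks reached 0.273 of it in untreated cells, 0.308 with APH, 0.0625 with HU and 0.432 with MMS. With both sides limited to bins of at least 80% unique words, the values were 0.389, 0.479, 0.110 and 0.705. All 8 lists stayed under 1 in both settings (exact sign-flip permutation test, p = 0.00781). The deficit was therefore several times smaller within GC classes than over all bases, and the order of the 4 conditions was the same. What part replication timing or chromatin state had in it was not tested.

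**Figure D2:**
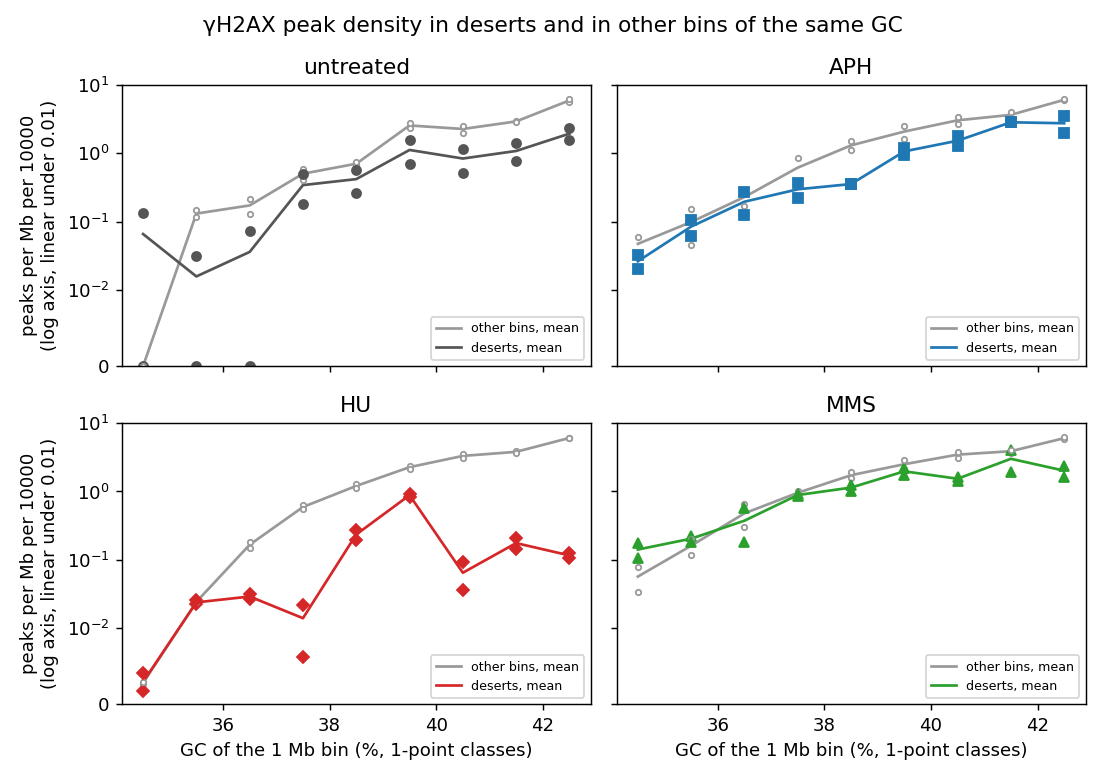
γH2AX peaks per Mb for each 10000 peaks of the list (y axis, logarithmic above 0.01 and linear below) against the GC content of 1 Mb bins in 1-point classes (x axis), in bins with at least 80% unique words, 1 panel for each condition. Coloured points are deserts and open circles the other bins, 1 for each replicate, and lines join the means. At 35 to 36% GC the HU deserts and other bins meet at 0.0239 and 0.0243, and at 40 to 41% they stand at 0.0648 and 3.31. In the lower class 1 desert holds 9 of the 13 HU peaks of each list, and the upper class has 4 deserts.

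Deserts were the lowest of 6 classes of bins by gene content in each condition. The mean HU density, in peaks per Mb for each 10000 peaks, was 0.0460 in deserts, 0.117 in bins with no start but more gene body than the limit, 0.276 in bins with 1 start, 1.54 with 2 to 4 starts, 4.09 with 5 to 9 and 9.45 with 10 or more. For MMS the same classes held 0.407, 0.809, 1.11, 2.48, 4.37 and 7.18. From the deserts to the bins of 10 or more starts the density rose 206-fold after HU, 41.4-fold in untreated cells, 30.3-fold after APH and 17.6-fold after MMS. The rise was not even in each step: APH had 1.29 in bins with no start but more gene body than the limit, and 1.14 in bins with 1 start. GC content was higher in the classes with more starts.

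**Figure D3:**
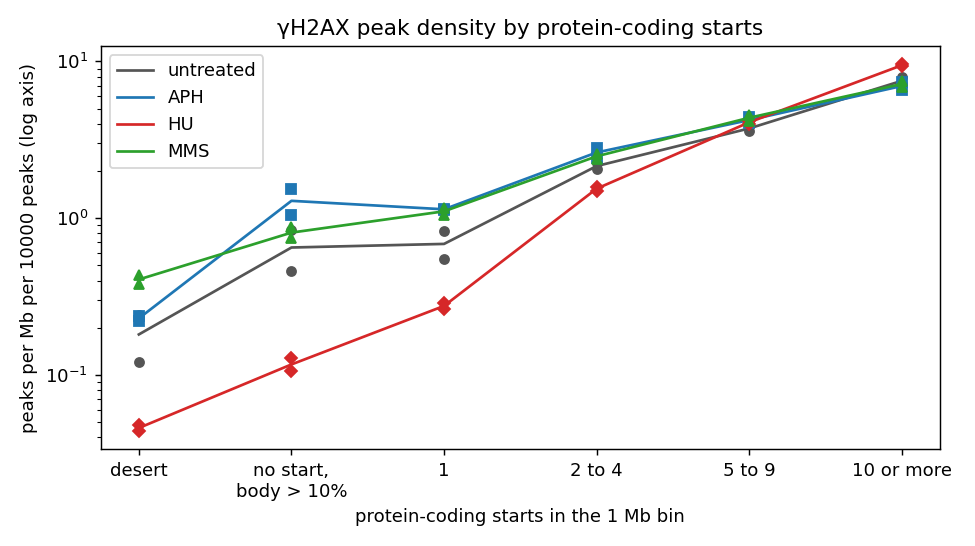
γH2AX peaks per Mb for each 10000 peaks of the list (y axis, log scale) in 1 Mb bins grouped by their protein-coding starts (x axis), with 1 point for each replicate and lines through the condition means. Deserts are the lowest class in every condition, from 0.0460 after HU to 0.407 after MMS, and the conditions come together in bins with 5 to 9 starts.

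Density did not change evenly across the limit used for gene bodies, where each class held few bins. The 14 deserts with gene bodies in up to 5% of their length were the densest, with mean densities of 0.547 in untreated cells, 1.04 with APH, 0.0709 with HU and 1.33 with MMS, in peaks per Mb for each 10000 peaks. The 12 deserts with 5 to 10% of their length in gene bodies had 0.184, 0.471, 0.0270 and 0.486. The 9 bins just outside the limit, with 10 to 20%, had 0.233, 0.742, 0.00696 and 0.691. The 271 deserts with no gene body at all had 0.162, 0.177, 0.0455 and 0.355. In the class of up to 5%, chr12:115000001-116000000 held 10 and 7 APH peaks and 4 and 2 HU peaks. In the same class, chr20:39000001-40000000 held 10 and 6 APH peaks and 5 and 2 HU peaks. The APH and HU values of the class thus rest largely on these bins, of 42.6% and 41.4% GC.

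Distance from genes gave the same picture without bins. Inside protein-coding genes, peaks were 1.13 (untreated), 1.22 (APH), 1.24 (HU) and 1.44 (MMS) times their share of unique bases. Outside genes but within 10 kb of one, the values in the same order were 2.43, 2.04, 2.45 and 1.56. At 10 to 100 kb they were 1.12, 1.11, 1.16 and 0.743. Between 500 kb and 1 Mb from the nearest gene, the values fell to 0.0604, 0.0630, 0.00569 and 0.123. More than 1 Mb away they were 0.0777, 0.0346, 0.00162 and 0.0451. In the HU lists 4 of 79891 and 3 of 69922 peaks lay that far from a gene.

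**Figure D4:**
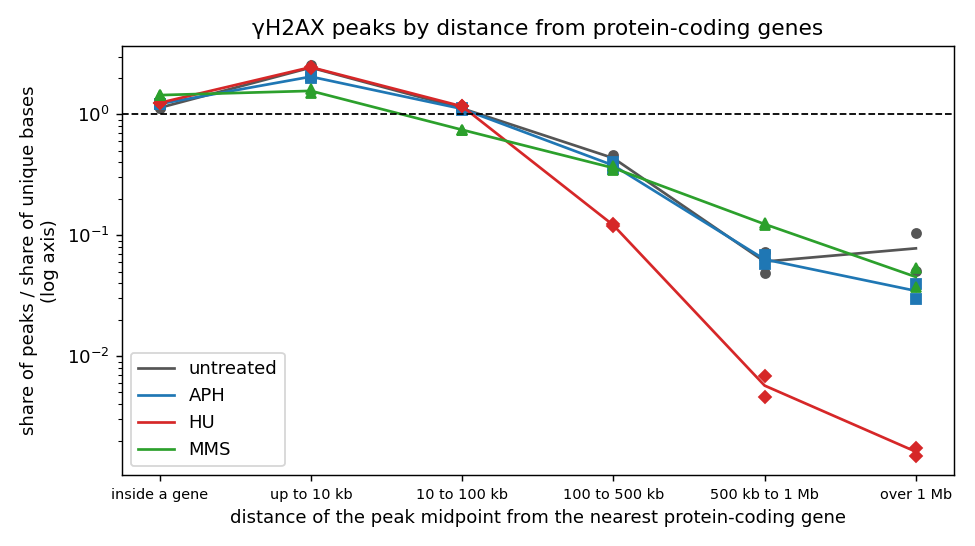
Share of each list's autosomal peaks over the share of unique bases (y axis, log scale) by distance of the peak midpoint from the nearest protein-coding gene (x axis). Points are replicates, lines join condition means, and the dashed line is a ratio of 1. HU falls to 0.00162 beyond 1 Mb, where the other conditions lie between 0.0346 and 0.0777.

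Most desert bins held no peak. In 151 of the 297 (50.8%) none of the 8 lists had a peak, against 183 of the other bins (7.54%). Among bins with at least 80% unique words the numbers were 97 of 238 deserts (40.8%) and 6.94% of the other bins. A peak in both replicates was found in 6 deserts in untreated cells, 30 with APH, 12 with HU and 34 with MMS. Each HU list had a peak in 19 or 23 deserts, while each MMS list had one in 75 or 73, although the HU lists were over 5 times longer. Only 6 deserts had a peak in at least 1 list of all 4 conditions.

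HU peaks were the most concentrated. The 3 fullest deserts of each list held 70.8% and 71.4% of HU desert peaks, 25.2% and 20.2% of those with APH, 15.3% and 17.9% of those with MMS, and 41.2% and 25.8% of those in the short untreated lists. Without the 3 deserts densest in HU peaks, the remaining 294 bins held 33 and 26 HU peaks, which was 0.00389 and 0.00350 of the number proportional to bases. The same 294 bins held 125 and 117 MMS peaks and 111 and 92 APH peaks. Since these bins were picked for their HU peaks, the HU number had to fall most, and the values are given as a description.

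The densest desert after HU and MMS lay on chromosome 8, at chr8:128000001-129000000, between MYC, a transcription factor gene that drives cell growth, and GSDMC, a gasdermin gene. It held 40 and 39 HU peaks, 8 and 11 MMS peaks, 3 and 3 APH peaks, and 1 and 2 untreated peaks. The HU lists stood above all others in number, and the MMS lists stood highest for their length, at 6.56 and 10.5 peaks for each 10000. PVT1, a lncRNA gene next to MYC that reaches into the bin, held 23 and 21 HU desert peaks, 2 and 7 MMS peaks and at most 3 in any other list. The adjoining bin that contains MYC was not a desert and was fuller still, with 131 and 123 HU peaks.

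The next desert after HU, chr2:41000001-42000000, lies between SLC8A1, a sodium-calcium exchanger gene, and PKDCC, which encodes a secreted protein kinase. It held 31 and 17 HU peaks, none in either untreated list, 1 and 3 with APH, and 4 and 2 with MMS. All 48 HU peaks lay within 152 kb at the end of the bin nearest PKDCC, which lies 48.0 kb beyond it. The next bin, with 7 protein-coding starts, held 104 and 93 HU peaks, whereas the bin on the other side held none. The lncRNA genes LINC01913 (5 and 4 HU peaks) and LINC02898 (5 and 3), which holds the chromosome 2 sequence printed above, lie in this stretch.

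The third, chr5:89000001-90000000, lies between MEF2C, a transcription factor gene used in B cells and muscle, which lies 95.7 kb before it, and CETN3, a centrin gene. It held 9 and 9 HU peaks, 0 and 4 MMS peaks, 0 and 1 APH peaks and no untreated peak. MEF2C-AS1, a lncRNA gene that reaches in from the side of MEF2C, held 6 and 7 of the HU peaks. The adjoining bin on that side held 7 and 3 HU peaks, so here the desert was not the fringe of a fuller bin.

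The deserts densest after APH were not those densest after HU. Highest was chr12:115000001-116000000, between TBX3, a T-box transcription factor gene, and MAP1LC3B2, a gene of the LC3 autophagy family, with the end of the Mediator subunit gene MED13L inside it. It held 10 and 7 APH peaks, 1 and 3 untreated, 4 and 2 HU, and 3 and 7 MMS peaks. For list length it was not particular to APH. It ranked second among deserts in untreated cells and with MMS, at means of 4.51 and 4.57 peaks for each 10000, against 5.33 with APH. The neighbouring bin on its right held 93 and 104 HU peaks, and the neighbouring bin on its left, with 2 protein-coding starts, held none. Another, chr2:7000001-8000000, between RSAD2, an antiviral gene, and ID2, an inhibitor of helix-loop-helix factors, with part of the ubiquitin ligase gene RNF144A, held 3 and 7 APH peaks, 1 and 0 untreated, 3 and 1 HU, and 4 and 2 MMS peaks.

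**Figure D5:**
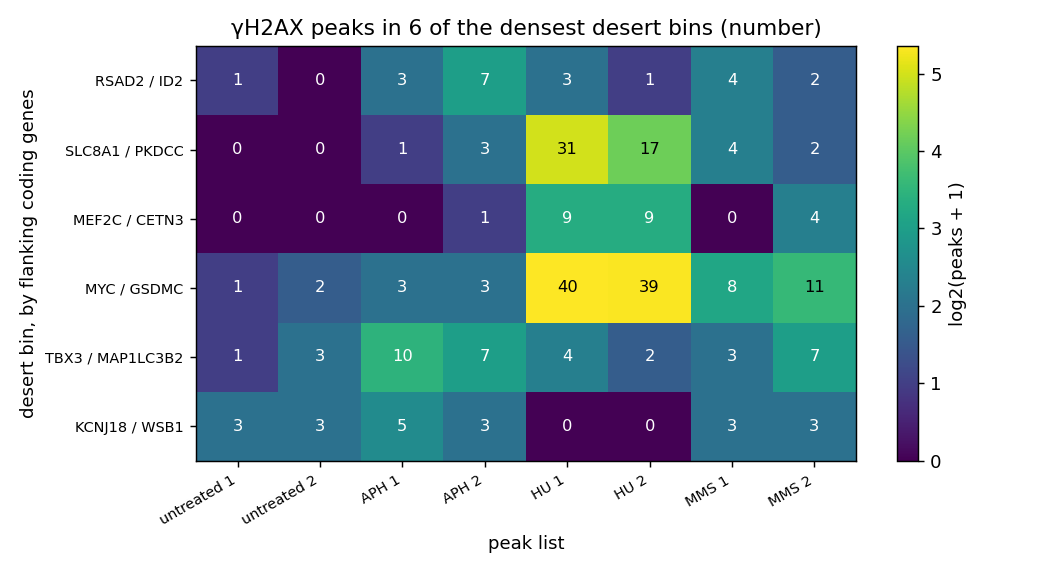
Number of γH2AX peaks in 6 of the densest desert bins (rows, labelled by the protein-coding genes on either side) in each of the 8 lists (columns), with the colour giving log2(peaks + 1). The bins beside MYC, PKDCC and MEF2C are fullest after HU, with up to 40 peaks, while the bin beside WSB1 has none after HU.

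The number of deserts where both treated lists exceeded both untreated lists, in peaks for each 10000, was 16 with APH, 7 with HU and 23 with MMS, or 5.39%, 2.36% and 7.74% of deserts. Over all 2723 bins the same held for 24% of bins with APH, 31.4% with HU and 27% with MMS. Both treated lists were lower than both untreated lists in 3 deserts with APH, 5 with HU and 3 with MMS, against 7.2%, 11.5% and 6.79% of all bins. Each share of deserts was under that of all bins, and most deserts held no peak in at least 1 of the lists compared. By this measure the bins beside PKDCC and MYC rose most with HU, and the bin beside MYC rose most with MMS.

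Of the 3 longest runs considered here, 2 were almost empty. The run of 6 bins chr18:15000001-21000000, from near ANKRD30B to GREB1L and across a centromere, had no peak in any list, though as little as 6.20% of its words in a bin were unique. The run of 4 bins chr4:32000001-36000000, between the protocadherin gene PCDH7 and DTHD1, with the start-free end of ARAP2 inside, was at least 99.2% unique in every bin. It held 1 peak over the 8 lists, in the second MMS list, where a number proportional to bases would have been 116 in the first HU list and 17.7 in the first MMS list. It was 1 of 5 runs of this length, and another, on chromosome 19, held 11 peaks. Peaks were rarer inside runs than at their edges: the 40 bins with a desert on both sides held no HU peak in either list, which allows up to 2.65% and 3.30% of HU desert peaks. They held 3 and 4 MMS peaks, 4 and 2 APH peaks, and 1 and 2 untreated peaks. Many of these 40 bins, such as the inner bins of the chromosome 18 run, had few unique words, where reads are hard to place. The comparison of inside with edge was not repeated in bins of mostly unique words, so the part of repeat content in it was not tested.

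The run of 5 bins chr17:22000001-27000000, between the potassium channel gene KCNJ18 and the ubiquitin ligase adaptor gene WSB1, stood apart among these repeats. It held 4 and 4 peaks in untreated cells, 6 and 4 with APH, 4 and 4 with MMS, and none in either HU list, which allows up to 2.65% and 3.30% of HU desert peaks. The motif of the CENP-B box was in 49.7% of its windows. Its fullest bin, chr17:26000001-27000000, was the densest desert of untreated cells (3 and 3 peaks) and 40% unique. These peaks were weak in enrichment and strong in significance. Their fold enrichment ran from 1.37 to 2.06 in the untreated lists, where the median desert peak had 2.57 and 2.53, but all 4 in each untreated list had a q-value of at most 0.05. No other desert peak of untreated cells passed that threshold. The 56 bins rich in the motif held 9 and 5 APH peaks and 4 peaks in each untreated and each MMS list, and no HU peak.

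Recurrent single sites were most numerous after HU, as they were outside deserts, where 43.3% and 50.96% of HU peaks recurred against 5.44% to 14.4% in the other lists. Desert sites overlapping by at least 1 bp between replicates numbered 4 in untreated cells, 5 with APH, 29 with HU and 3 with MMS. All 4 sites of untreated cells, 4 of the 5 of APH and all 3 of MMS lay in the chromosome 17 run. These were the same positions: the APH sites there overlapped the 4 untreated sites, and the MMS sites overlapped 3 of them. Site A printed above had a fold enrichment of 1.80 and 2.06 in the untreated lists, with q-values of 0.0175 and 4.14e-05, and site B had 1.88 and 1.93. After APH the remaining site, on chromosome 20, had a fold enrichment of 2.44 and 3.43 and q-values of 0.895 and 0.0341, so that it was faint in the first list.

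The HU sites lay elsewhere. Of the 29, 18 were in the chromosome 8 desert beside MYC, and the rest were in 3 further bins of chromosomes 2 and 5. The site of highest mean fold enrichment was the chromosome 2 sequence printed above, inside LINC02898 and 98.3 kb from PKDCC, with 3.62 and 3.06 and q-values of 0.000999 and 0.0142. The second, chr8:128142526-128143959, lay in PVT1 and had 3.06 and 3.08, with q-values of 0.00538 and 0.0112. Without the chromosome 8 desert, chosen for removal after its values were seen, the HU ratio to the share of bases fell from 0.0127 to 0.00776, and MMS went from 0.112 to 0.105.

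Desert peaks were compared with the other peaks of the same list in 5 properties (exact two-sided sign-flip permutation tests over 8 lists, adjusted over the 5). Fold enrichment was lower in deserts in 8 of 8 lists, with a mean difference of −0.0670 ± 0.0281 (SD over lists, exact permutation test, adjusted p = 0.0130). The medians in deserts ran from 2.50 to 2.65 over the lists and those of other peaks from 2.55 to 2.77. Against other peaks in bins of the GC range of deserts the difference shrank to −0.0191 (exact permutation test, adjusted p = 0.273), so it moved with GC.

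The central 300 bases of desert peaks had 40.02 to 44.1% GC on average, against 44.1 to 47.2% for other peaks. The difference was −3.85 ± 0.823 percentage points and negative in 8 of 8 lists (exact permutation test, adjusted p = 0.0130), and it was −0.00185 against peaks in bins of like GC (same test, adjusted p = 0.984). Within deserts, peaks lay in the richer sequence. Their GC exceeded the 36.7% of all desert bases by 4.91 ± 1.29 percentage points, in 8 of 8 lists (exact permutation test, adjusted p = 0.0130). Peaks were not compared with the bases of their own bins, and deserts of higher GC tended to hold more peaks.

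Peak width, taken as the median, and recurrence did not pass at a threshold of 0.05. Desert peaks were narrower in 6 of 8 lists, with a mean difference of −46.4 ± 52.7 bp (exact permutation test, adjusted p = 0.0781). In HU the medians were 650 and 642 bp in deserts and 763 and 743 bp elsewhere. Without the first untreated list the mean difference was −57.4 bp with an adjusted p of 0.0313 by the same exact test. With mean widths in place of medians it was −147.5 bp (exact permutation test, adjusted p = 0.00977), and in bins of at least 80% unique words −56.8 bp (adjusted p = 0.0234), so the call rests on these choices. The share of peaks found in the other replicate was lower in deserts in 7 of 8 lists, with a mean difference of −5.42 ± 9.43 percentage points (exact permutation test, adjusted p = 0.164). It was 25.7% and 32.97% against 43.3% and 50.96% for HU, and 2.19% and 2.24% against 5.44% and 6.32% for MMS. The first untreated list went the other way, with 23.5% against 11.8%, and its 4 recurrent peaks were those of chromosome 17. Without it the difference was −7.87 points (exact permutation test, adjusted p = 0.0195), and in bins of at least 80% unique words it was −11.4 points (adjusted p = 0.00977).

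HU peaks covered few desert positions at which other conditions had a peak. Of the desert peaks of untreated cells, 0 of 17, which allows up to 17.6%, and 2 of 31 (6.45%) overlapped a peak of either HU list, whereas 51.4% and 45.5% of the other untreated peaks did. For APH the values were 2.61% and 2.02% in deserts against 37.6% and 34.6% elsewhere, and for MMS 2.92% and 2.99% against 35.996% and 35.2%. Overlap of APH desert peaks with MMS was closer to that elsewhere, at 6.96% and 7.07% against 9.32% and 8.88%. These shares follow the density of the list compared and are given as a description, with no test.

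LncRNA genes covered 23.7% of desert bases. They held 1 of 17 and 12 of 31 desert peaks of untreated cells (5.88% and 38.7%), 27.8% and 39.4% of those with APH, 41.6% and 48.4% with HU, and 43.1% and 30.6% with MMS. The share exceeded that of bases in 7 of 8 lists, and PVT1 alone held 44 of the 204 HU desert peaks. The 23.7% also counts the 59 deserts with under 80% unique words, many of which had no lncRNA gene and no peak. The share was not recomputed without them, so the part of repeat content in this excess was not tested. The 232 deserts with a lncRNA start had mean densities of 0.212 in untreated cells, 0.288 with APH, 0.0584 with HU and 0.501 with MMS, in peaks per Mb for each 10000 peaks. The 65 without held 0.0706, 0.0200, 0.000979 and 0.0641. The part of repeat content in that difference was not tested.

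The paper cites long tracts of A or T as prone to fork collapse under HU in mouse B cells. A lower limit was used here: runs of at least 10 bases that were all A or all T were in 5.90% of 300-base desert windows. They were in 6.19% and 6.59% of the central 300 bases of HU desert peaks, in 5.11% and 2.24% for MMS, in 2.61% and 2.02% for APH and in none of the 17 and 31 of untreated cells, which allows up to 17.6% and 9.68%. Of HU peaks outside deserts 11.1% and 10.8% held such a run, but the level of sequence outside deserts was not counted. In deserts the HU values were thus near the level of desert sequence, and were given with no test.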

How the data were processed

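γH2AX ChIP-seq had been carried out in untreated, APH, HU and MMS cells, with 2 independent replicates each. The authors used Bowtie2 to align to GRCh38, filtered with SAMtools against duplicates and mapping qualities below 40, and called broad peaks for each replicate against input with MACS2 at p of 0.001, then dropped blacklisted regions. Versions are not given in the sources used here. The deposited lists give for each peak a score, a fold enrichment, and −log10 values of p and q. The quality filter removes most reads from repeats, which limits what can be seen there. The input library and the authors' reads were not analysed here.

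Genes came from GENCODE release 44. Peaks were assigned to bins by midpoint, and shares were taken over all autosomal peaks and assembled bases. Tests were exact permutation tests (scipy 1.17.1) with Benjamini-Hochberg adjustment, and scripts were tested on simulated data. Named bins were the 3 densest in each condition and the 2 that rose most with each treatment while both treated lists exceeded both untreated. Named sites were the 2 strongest recurrent in each condition, and named runs the 3 longest. Members, lists and tests were chosen with earlier results of these data known. Replicate numbers did not pair samples (correlation of deviations over all bins from −0.113 to 0.0912). Some bins named by this rule are not reported here.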

Additional observations from a re-analysis of the deposited data

How the results depend on the processing

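Each of 24 alternatives left the density of deserts under that of the other bins in all lists used, with the mean log2 ratio from −5.27 (peaks found in the other replicate) to −1.55 and, with a list left out, from −4.78 to −4.30. The ratio of the desert share to the base share moved by more than the spread of 2 replicates in many settings, and values are given for untreated cells, APH, HU and MMS in that order. With 500 kb bins it was 0.104, 0.133, 0.0296 and 0.175. Against other bins of the same GC it was 0.273, 0.308, 0.0625 and 0.432, and with at least 80% unique words as well, an alternative added after seeing the data, 0.389, 0.479, 0.110 and 0.705. With APH, HU and MMS in that order, it was 0.0703, 0.0148 and 0.0957 with bins shifted by 500 kb, 0.0728, 0.0146 and 0.129 over unique bases, and 0.0700, 0.0151 and 0.129 in bins at least 80% unique. The stronger 50% of peaks gave 0.0483, 0.00922 and 0.0907, and equal numbers of the strongest gave 0.0485, 0.00431 and 0.0938, where the second HU list held no desert peak and entered the log2 ratio at 3 peaks. Peaks found in the other replicate gave 0.0252, 0.00784 and 0.0384. Bases covered by peaks gave 0.0490 with APH, 0.0102 with HU and 0.101 with MMS. No gene body at all gave 0.0488 with APH and 0.0979 with MMS, and a body limit of 50% gave 0.0774 with APH. Without bins near chromosome ends APH had 0.0695. HU peaks with q of at most 0.05 gave 0.0103, and HU without its densest bin, also added after seeing the data, 0.00776. Leaving out a replicate gave 0.0332 to 0.0668, 0.0608 to 0.0659, 0.0121 to 0.0132 and 0.105 to 0.119.

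Differences in desert share kept their direction for HU against each other condition and for APH against MMS. MMS against untreated reversed to −0.0886 percentage points, and APH against untreated to −0.230, among peaks found in the other replicate, and the cause was not tested. In that setting each untreated, APH and MMS list held at most 5 desert peaks. APH against untreated was also −0.0116 with equal numbers. All treated against untreated was −0.0416 with shifted bins, −0.000490 with 500 kb assembled, −0.00551 (a difference of ratios) within GC, −0.00770 with equal numbers, −0.245 among peaks found in the other replicate, and −0.000619 without chromosome ends. With a replicate left out, the differences ran from −0.0375 to 0.323 (APH against untreated, negative without the first untreated list), −0.581 to −0.220 (HU), 0.485 to 0.846 (MMS) and −0.0443 to 0.316 (treated). They ran from −0.571 to −0.516 for HU against APH, −1.15 to −0.987 for HU against MMS, −0.602 to −0.444 for APH against MMS and −0.760 to −0.575 for HU against the rest. The replicate block, though the numbers did not pair samples, gave the same means, such as −0.400 for HU against untreated, and passed no threshold.

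Desert fold enrichment and GC lost their call against peaks in bins of like GC (−0.0191, adjusted p = 0.273, and −0.00185, adjusted p = 0.984, exact permutation tests). Width passed with the mean in place of the median (−147.5 bp, exact permutation test, adjusted p = 0.00977) and in bins at least 80% unique (−56.8 bp, adjusted p = 0.0234), as did recurrence in the latter (−11.4 points, adjusted p = 0.00977). With a list left out, the ranges were −57.4 to −36.9 bp for width, −0.0722 to −0.0594 for fold enrichment, −7.87 to −3.63 for recurrence, −3.97 to −3.63 for GC and 4.55 to 5.14 for GC over desert bases. Width and recurrence passed without the first untreated list, at −57.4 bp and −7.87. The untreated lists, with 17 and 31 desert peaks, limit each comparison with untreated cells.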
